A study of Homo sapiens with 6 samples.

Results

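The D-type cyclins (CCND1, CCND2 and CCND3), the kinases CDK4 and CDK6 that they activate, and the E-type cyclins (CCNE1 and CCNE2) were examined in OCI-AML3, a long-established human line of acute myeloid leukemia (AML). These 7 genes were chosen by name, from 20162 protein-coding genes annotated on GRCh37 and 19675 on GRCh38 that had a transcript start. OCI-AML3 cells carry, per the study, a heterozygous mutation of NPM1 (mtNPM1) and of DNMT3A and a homozygous mutation of NRAS, and both groups share these. The guide RNA was either a control (sgNeg) or targeted mtNPM1 (sgNpm1A), and the labels give 3 days of culture after transfection. ChIPmentation, in which the precipitated chromatin is tagged by Tn5 transposase, was performed for acetylated lysine 27 of histone H3 (H3K27Ac), a mark of active enhancers and promoters, and for trimethylated lysine 4 (H3K4me3), a mark of active promoters. There was 1 library per guide RNA and mark, so 4 peak lists were compared. No replicate exists, no test between guide RNAs was possible, and each difference below is one between a pair of libraries. The question addressed was which of these cyclins and kinases carry active marks in this leukemia line, and what the lists made after editing of mtNPM1 hold at the same genes.

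D-type cyclins are made in response to growth signals and bind CDK4 or CDK6. The active kinases phosphorylate the retinoblastoma protein RB1, which releases E2F transcription factors. E2F factors raise the E-type cyclins, which activate CDK2 and carry the cell into S phase. Inhibitors of the INK4 family bind CDK4 and CDK6, whereas those of the CIP/KIP family act mainly on the CDK2 complexes. CDK6 is the more prominent of the pair in blood cells, and the D-type cyclins are used to different extents in different tissues.

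Whole-list facts bear on each result. The lists held 327715 (sgNeg) and 317059 (sgNpm1A) H3K27Ac peaks and 353628 and 106641 H3K4me3 peaks. In the control lists, 79.1% of all coding genes had a H3K27Ac promoter peak and 68.3% a H3K4me3 promoter peak, a promoter being any annotated transcript start with 1 kb before and after it. In the sgNpm1A lists these shares were 57.0% and 9.49%, so the sgNpm1A H3K4me3 library stood apart at promoters of all kinds. Peaks with a q-value (false discovery rate) under 1e-05 were at 35.6% and 53.4% of coding promoters in sgNeg, but at 0.903% and 1.62% in sgNpm1A, for H3K27Ac and H3K4me3. How much of any difference below is a property of the libraries and how much of the edited cells cannot be told apart. Of the myeloid markers SPI1, CEBPA, CEBPE, CD33, CSF3R, MPO, ELANE and LYZ, 8 of 8 had a H3K27Ac and 7 of 8 a H3K4me3 promoter peak in sgNeg, and 5 and 1 in sgNpm1A. Of 13 markers of T, B, erythroid, epithelial and hepatic cells, 12 and 4 had one in sgNeg and 9 and 2 in sgNpm1A. Enrichment is scaled within a list, so promoters were compared by the percentile, among all peaks of the list, of the fold enrichment of their highest peak, with 0 for no peak. The median percentile in sgNeg was 97.1 (H3K27Ac) and 85.4 (H3K4me3) for the myeloid markers, against 60.7 and 0 for the others. Single markers did not all follow the medians. For H3K4me3 in sgNeg, the myeloid MPO (34.4), CEBPE (7.07) and LYZ (no peak) stood below CD3G and KRT8 (both 80.0) and CD3E (72.7). The myeloid SPI1, ELANE, CEBPA and CD33 were at 98.0 or above, and CSF3R was at 72.7. In sgNpm1A the H3K27Ac percentile of the B cell marker PAX5 was 98.1, above the highest myeloid one, 81.7 (CD33). Of the erythroid markers, HBB and KLF1 had H3K27Ac promoter peaks in both guide lists, at percentiles 93.1 and 46.2 in sgNeg, and GATA1 had no promoter peak in any list. The H3K27Ac lists are on GRCh37 and the H3K4me3 lists on GRCh38, and all labels name OCI-AML3. However, the deposited peak names carry the tag OCI2 in both H3K27Ac lists and OCI3 in both H3K4me3 lists, and the study also used OCI-AML2, another AML line, which has wild-type NPM1 unless edited. What the tags stand for is not given in the sources used here, so that the H3K27Ac values are of OCI-AML3 rests on the labels alone, and a comparison across marks may be one across lines. Positions are therefore set side by side across marks only as distances from a transcript start. That start was matched by promoter sequence for CDK4, CDK6, CCND3 and CCNE1, and by record length for CCND1 and CCND2. For CCNE2 the starts of the gene records were used and were not matched.

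Promoter sequences are shown for the 4 genes of the group that the RefSeq promoter table (GRCh38.p14) held, because the peaks described below lie on or beside them. Each runs from 250 bases before to 50 bases after the start, 5′ to 3′ on the strand of the gene. Each matched GRCh37 exactly at 1 place, which ties the start on both builds. Capitals mark matches to an E-box (CACGTG, the same on both strands) or a GC box (GGGCGG, or CCGCCC where it lies on the other strand), and no capitals overlap another motif.
CDK6, chr7:92836524-92836823 (GRCh38), chr7:92465838-92466137 (GRCh37), minus strand: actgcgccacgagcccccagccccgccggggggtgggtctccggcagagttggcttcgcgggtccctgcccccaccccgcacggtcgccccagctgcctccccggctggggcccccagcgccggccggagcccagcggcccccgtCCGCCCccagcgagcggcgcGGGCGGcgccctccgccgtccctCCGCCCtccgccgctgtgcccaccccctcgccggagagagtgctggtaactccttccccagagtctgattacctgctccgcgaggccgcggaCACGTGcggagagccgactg
CDK4, chr12:57752261-57752560 (GRCh38), chr12:58146044-58146343 (GRCh37), minus strand: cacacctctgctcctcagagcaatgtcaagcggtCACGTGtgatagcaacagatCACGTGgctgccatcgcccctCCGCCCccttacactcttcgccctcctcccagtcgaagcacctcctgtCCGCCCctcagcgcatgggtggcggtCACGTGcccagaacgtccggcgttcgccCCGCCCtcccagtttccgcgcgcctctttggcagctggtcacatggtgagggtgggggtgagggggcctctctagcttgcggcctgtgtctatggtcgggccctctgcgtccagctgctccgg
CCND3, chr6:41941759-41942058 (GRCh38), chr6:41909497-41909796 (GRCh37), minus strand: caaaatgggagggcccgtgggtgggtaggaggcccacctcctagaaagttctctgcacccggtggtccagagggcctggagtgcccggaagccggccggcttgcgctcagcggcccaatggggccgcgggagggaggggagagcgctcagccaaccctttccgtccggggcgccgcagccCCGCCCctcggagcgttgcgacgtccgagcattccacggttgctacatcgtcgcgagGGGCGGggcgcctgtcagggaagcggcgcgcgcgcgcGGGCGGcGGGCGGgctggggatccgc
CCNE1, chr19:29811741-29812040 (GRCh38), chr19:30302648-30302947 (GRCh37), plus strand: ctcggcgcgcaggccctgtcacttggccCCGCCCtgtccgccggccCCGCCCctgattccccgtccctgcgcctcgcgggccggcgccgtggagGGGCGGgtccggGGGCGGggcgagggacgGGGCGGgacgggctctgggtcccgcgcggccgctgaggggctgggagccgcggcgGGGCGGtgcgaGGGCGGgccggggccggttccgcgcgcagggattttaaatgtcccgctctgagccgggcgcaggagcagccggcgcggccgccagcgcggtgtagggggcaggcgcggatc

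The table also held 2 further windows for CCND3 and 1 for CDK6, at other starts, and the one at the MANE start was printed for each. The 4 printed windows were all rich in CpG but differed in their motifs. CCNE1 had 81.0% GC, 47 CpG and 7 GC boxes, CDK6 had 78.0% GC, 37 CpG and 3 GC boxes, CCND3 had 73.7% GC, 37 CpG and 4 GC boxes, and CDK4 had 66.0% GC, 23 CpG and 3 GC boxes. Over 34943 RefSeq promoter windows of the same length the medians were 58.7% GC and 14 CpG, 44.9% held a GC box and 15.7% held 3 or more. The CDK4 window held 3 E-boxes, the letters bound by MYC with its partner MAX, beginning 216, 196 and 101 bases before the start. An E-box stood in 7.23% of all windows, and 3 or more in 33 windows (0.0944%). CDK6 held 1 E-box, 31 bases into the transcript, and the CCND3 and CCNE1 windows held none. Of the windows not printed, the downstream one of CCND3 had 3 CpG and no GC box, the upstream one 29 CpG and 5 GC boxes, and that of CDK6 29 CpG and no GC box, and none held an E-box. Neither TATAAA nor the E2F letters TTTCGCGC or TTTGGCGC, searched on both strands, stood in any of the 4 windows, whereas 11.6% and 1.14% of all windows held them. A match of letters is a description and not a bound site.

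In the control lists 6 of the 7 genes had a promoter peak of H3K27Ac and the same 6 one of H3K4me3, beside 79.1% and 68.3% of all coding genes. These were CDK4, CDK6, CCND1, CCND3, CCNE1 and CCNE2, while CCND2 had neither. Both marks were at 65.2% of the 19101 coding genes compared by symbol, and neither at 16.5%. Of the 7 genes, 5 had a H3K27Ac and 6 a H3K4me3 promoter peak with a q-value under 1e-05, beside 35.6% and 53.4% of all coding genes. CCNE1, at a q-value of 9.30e-05 for H3K27Ac, was the one that differed. The highest promoter peaks had a median percentile within their lists of 98.8 for H3K27Ac and 99.0 for H3K4me3 over the 7 genes. Over all coding genes, with 0 for no peak, these medians were 92.4 and 85.2. Over only the coding genes with a promoter peak they were 96.4 and 97.4, so a high percentile was usual for a promoter peak. Ranked among those promoters alone, the H3K27Ac fold enrichment ran from percentile 47.9 (CCNE1) and 62.5 (CCND1) to 99.9 (CDK6). For H3K4me3 it ran from 66.5 (CDK4) to 98.0 (CDK6). At MANE Select starts, those of the transcript chosen as representative by the annotation, 6 of 7 genes had a H3K27Ac peak, against 72.2% of 18922 genes.

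The kinases differed from each other in the fold enrichment of their peaks. For H3K27Ac this is an average over peaks of unlike width, and for H3K4me3 it is the value at the summit. CDK6 had a H3K27Ac promoter peak of 12.2-fold enrichment over background, and CDK4 one of 5.52-fold, at percentiles 99.98 and 98.8. For H3K4me3 the values were 13.5-fold and 7.49-fold. Among all coding promoters with a peak in the control lists, 20 of 15950 genes had a higher H3K27Ac peak than CDK6 and 267 of 13441 a higher H3K4me3 peak, while 3650 and 4508 genes were above CDK4. The fold values of H3K4me3 return whole numbers of fragments at each summit, with 64 at CDK6 (95% Poisson interval 49.3 to 81.7), 51 at CCNE2 (37.97 to 67.1), 43 at CCND3 (31.1 to 57.9), 40 at CCNE1 (28.6 to 54.5), 37 at CCND1 (26.1 to 51.0) and 35 at CDK4 (24.4 to 48.7), against a background of 3.81. These intervals cover counting error only, and the interval of CDK6 overlapped all others but that of CDK4. For H3K27Ac the order was CDK6, CCND3 (6.43-fold), CCNE2 (5.53-fold), CDK4, CCND1 (4.69-fold) and CCNE1 (3.96-fold), with no spread to compare it with.

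**Figure D1:**
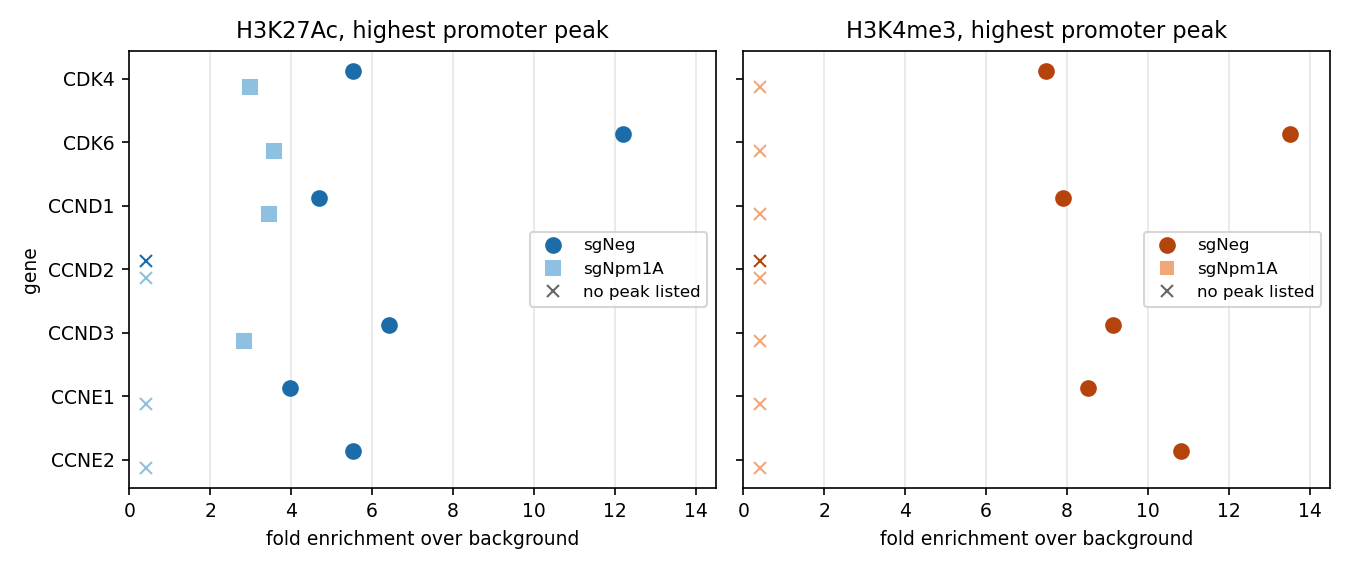
Fold enrichment of the highest promoter peak of each gene in the H3K27Ac lists (left, circles sgNeg, squares sgNpm1A) and in the H3K4me3 lists (right); the promoter peak may lie at any annotated start of the gene, and a cross at the left edge marks a gene with no promoter peak listed and carries no value. CDK6 stands at 12.2-fold and 13.5-fold in sgNeg, CCND2 has no peak, and no gene has a H3K4me3 promoter peak in sgNpm1A.

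CDK6, the larger of the kinase genes, had the widest promoter peak of each mark in the group. The gene spans 231653 bp on chromosome 7 (chr7:92234235-92465887 on GRCh37, minus strand). In sgNeg its H3K27Ac promoter peak ran over chr7:92458582-92467564, 8983 bp from 1677 bp before to 7305 bp after the start, and was 54th in fold enrichment of the 327715 peaks. The H3K4me3 peak lay inside the same stretch, at chr7:92831214-92836338 on GRCh38, 235 to 5359 bp after the start. At 5125 bp it was the 9th widest of 353628 peaks, and 3 other genes had a wider H3K4me3 promoter peak. A narrower H3K4me3 peak of 415 bp and 6.45-fold lay over the start itself, on the promoter sequence printed above. Both marks thus extended mainly into the gene.

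The introns of CDK6 were marked by H3K27Ac over long stretches in sgNeg. Of 97 H3K27Ac peaks in the gene with 20 kb on either side, 68 lay wholly in introns away from any annotated coding start, and they covered 117.2 kb together. The widest was chr7:92255865-92281537, in intron 5 of the 8-exon MANE transcript, 184 to 210 kb after the start. It was 25673 bp wide, 46th in width of all H3K27Ac peaks, with 6.65-fold enrichment (q-value 7.36e-13). A pair of further stretches lay in intron 2, one of 9300 bp at 3.94-fold 38.6 to 47.9 kb after the start, and one of 8939 bp at 4.00-fold 49.7 to 58.7 kb after it. H3K4me3 was not raised in the same way there. At the distances of the widest stretch, 5 H3K4me3 peaks were listed in sgNeg, none above 3.95-fold. Over the whole gene body outside the promoter, 51 H3K4me3 peaks reached at most 4.37-fold, or 20 fragments, against 64 at the promoter.

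Peaks covered 57.5% of the CDK6 region in the sgNeg H3K27Ac list, which was above 96.8% of coding gene regions made the same way, whose median was 9.81%. Chromosome 7 as a whole was covered to 9.12% and was 6th of 24 chromosomes in peaks per Mb. For H3K4me3 the region was covered to 7.66% in sgNeg, at the 73.0th percentile of regions, against 4.78% of the chromosome. When H3K27Ac peaks within 12.5 kb were joined and ranked by summed length times fold enrichment, the joined region over CDK6 was 92nd of 49246 in sgNeg. It was 684 kb long and so reached past CDK6. Near the 3′ end the region also holds the promoter of FAM133B, which had a H3K27Ac peak of 7.23-fold and a H3K4me3 peak of 11.0-fold in sgNeg.

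In the sgNpm1A lists the CDK6 promoter held little. The only H3K27Ac peak within the 8983 bp of the sgNeg promoter peak was 533 bp wide, 3.58-fold enriched and 2753 to 3285 bp after the start, at percentile 93.1 of its list. It covered 5.93% of the sgNeg peak, and no H3K4me3 peak was listed within the sgNeg H3K4me3 promoter peak. The intronic H3K27Ac peaks were 59, as against 68, but covered 39.5 kb, as against 117.2 kb, and their median width was 558 bp as against 796 bp. Over the whole H3K27Ac lists the median width was 415 bp in sgNpm1A and 358 bp in sgNeg. Of these 59 peaks, 58 overlapped a sgNeg peak of the region. The stretch of intron 5 held 9 peaks that covered 24.2% of it, the highest at 3.16-fold. Peaks covered 20.4% of the region for H3K27Ac, above 83.1% of coding gene regions in that list, and 3.27% for H3K4me3, where chromosome 7 as a whole was at 3.06%. The joined H3K27Ac region over CDK6 was 169th of 52919.

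**Figure D2:**
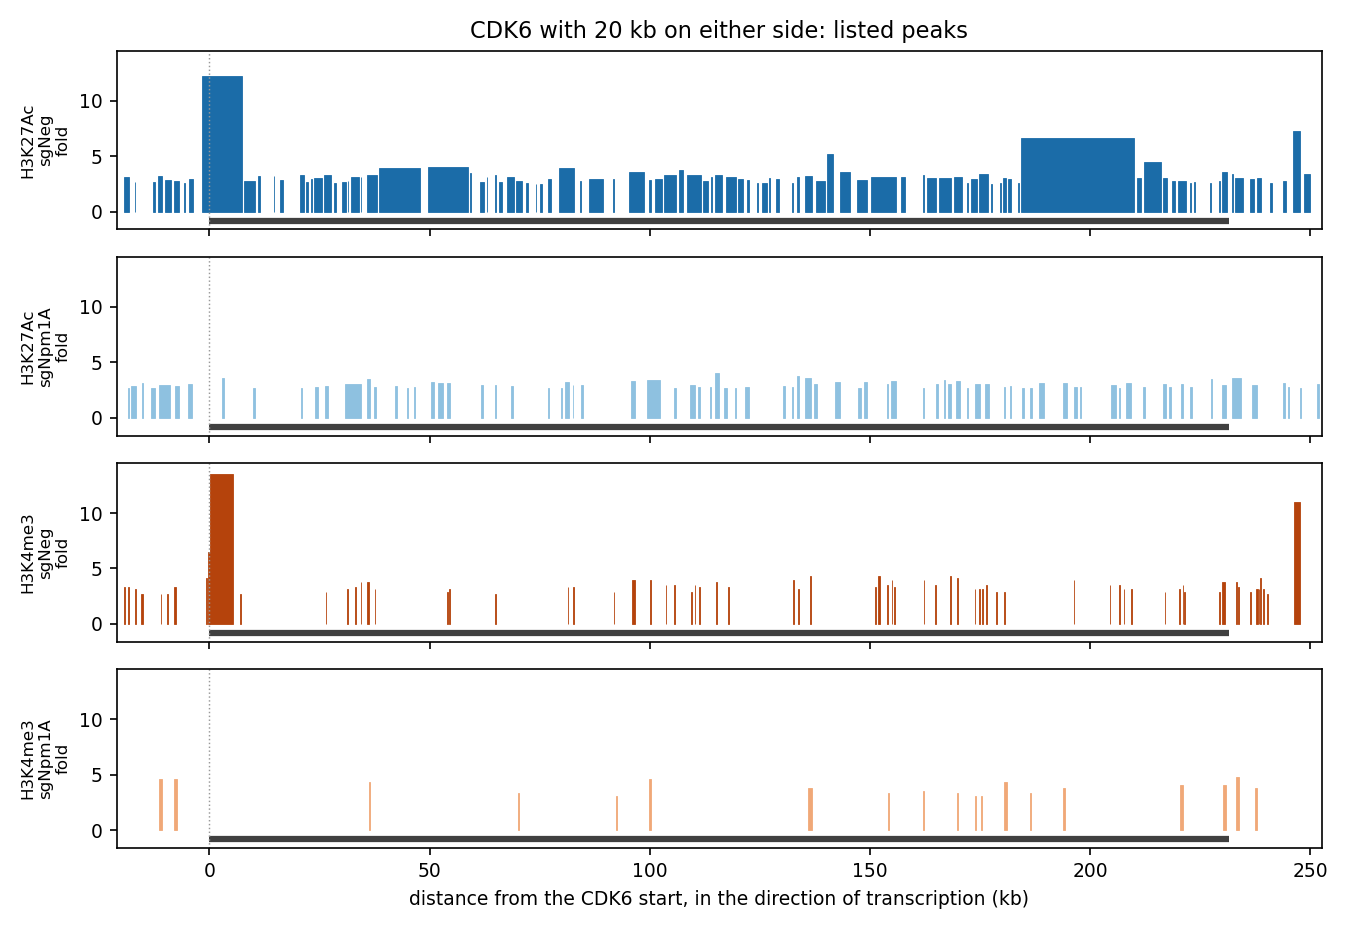
Listed peaks over CDK6 with 20 kb on either side, by distance from its start in the direction of transcription (kb), in 4 panels for the 2 marks and 2 guide RNAs; each bar spans a peak, its height is the fold enrichment, and the dark line is the gene. In sgNeg the promoter bar reaches 12.2-fold and 13.5-fold and a 25673 bp bar stands near the 3′ end at 6.65-fold, and in sgNpm1A no H3K27Ac bar is above 4.04-fold.

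CDK4, the other partner of the D-type cyclins, is a short gene in a dense stretch of chromosome 12. Its H3K27Ac promoter peak in sgNeg was 1738 bp wide (chr12:58144937-58146674, GRCh37), from 581 bp before to 1156 bp after the start, and so covered the printed window with the E-boxes. Its H3K4me3 peak was 1198 bp wide (chr12:57751068-57752265, GRCh38) and began 45 bp after the start. Of 10 H3K27Ac peaks in the 48287 bp region, 5 lay at starts of other coding genes only. Neighbours with such peaks were AGAP2, TSPAN31, MARCHF9, METTL1, CYP27B1 and EEF1AKMT3, the highest being the one shared by METTL1, EEF1AKMT3 and ENSG00000257921 at 5.38-fold. None was classed as intronic. In sgNpm1A a H3K27Ac peak of 391 bp and 2.98-fold lay 580 to 970 bp after the start, at percentile 55.1, and it was the only peak at a MANE Select start of the 7 genes in that list, where 32.5% of all genes had one. The nearest H3K4me3 peak of sgNpm1A was 5366 bp away. Coverage of the CDK4 region by H3K27Ac peaks was 19.8% in sgNeg and 16.9% in sgNpm1A. Of peaks with a q-value under 0.01 it was 13.03% and 3.46%.

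The D-type cyclins differed from each other. CCND3 had the widest promoter peak of each mark, CCND1 had narrower ones, and CCND2 had none. The gap between CCND3 and CCND1 was large for H3K27Ac only (8380 and 2930 bp), since the H3K4me3 peaks were 1676 and 1589 bp wide. Among all promoters with a peak the CCND1 peaks were themselves wide, with 4132 of 15950 genes wider for H3K27Ac and 1124 of 13441 for H3K4me3. At CCND3 the H3K27Ac peak in sgNeg was chr6:41902127-41910506 on GRCh37, 8380 bp wide at 6.43-fold, and reached from 960 bp before the MANE start to past the 3′ end of the gene record. It ranked 1255th in width, and 818 of 15950 genes had a wider promoter peak. The H3K4me3 peak at this start was 1676 bp wide and 9.15-fold enriched (chr6:41940063-41941738, GRCh38), beginning 70 bp after it. The gene record begins 109 kb upstream, where long isoforms start. There H3K27Ac reached 4.48-fold in a 897 bp peak within 1 kb of starts of both CCND3 and TAF8, whereas 3 H3K4me3 peaks at the upstream RefSeq start reached at most 3.74-fold. The 19 intronic H3K27Ac peaks between the starts were all at most 1654 bp wide and 3.29-fold enriched.

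In sgNpm1A the reference promoter of CCND3 held no peak of either mark within 1 kb. One H3K27Ac peak of 757 bp and 2.95-fold lay 5991 bp after the start and covered 9.03% of the sgNeg peak. The promoter peak counted for CCND3 in this list was a 1129 bp peak at 2.83-fold at the upstream start, at percentile 33.8. Coverage of the 155424 bp CCND3 region by H3K27Ac was 19.8% in sgNeg and 7.00% in sgNpm1A. Their ratio was 0.354, close to 0.355 at CDK6, with all listed peaks. With a q-value under 0.01 it was 0.298, and CCNE1 (0.151), CDK6 (0.216) and CDK4 (0.265) had lower ratios. Both marks were also at the neighbours BYSL and MED20 (with ENSG00000288721), whose starts lie within 20 kb of the 3′ end, at 5.06-fold (H3K27Ac) and 9.57-fold (H3K4me3) in sgNeg.

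CCND1, the D-type cyclin best known from solid tumors and mantle cell lymphoma, carried both marks in the control lists. Its H3K27Ac peak spanned chr11:69455636-69458565 on GRCh37, 2930 bp at 4.69-fold, and its H3K4me3 peak chr11:69641262-69642850 on GRCh38, 1589 bp at 7.90-fold. They ran from 288 bp before to 2641 bp after the start and from 106 to 1694 bp after it. No sgNpm1A peak overlapped either. The 3 H3K27Ac peaks counted for CCND1 in sgNpm1A lay at annotated internal starts, 2925 bp to 7945 bp after the reference start, and the highest was 154 bp wide and 3.44-fold enriched. The promoter of the neighbour LTO1, 32998 bp downstream, had a H3K4me3 peak of 9.78-fold in sgNeg, which was higher than that of CCND1. The start of LOC124902704 had H3K4me3 peaks of 3.74-fold in sgNeg and 4.32-fold in sgNpm1A.

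CCND2 had no peak of either mark within 1 kb of any annotated start in any of the 4 lists. The peak nearest to its reference start was 7800 bp downstream for H3K27Ac in sgNeg, with 2.75-fold enrichment, and 7929 bp upstream for H3K4me3, with 3.33-fold. In sgNpm1A these distances were 7239 bp and 28367 bp. The region was not empty of peaks, since it held 9 H3K27Ac peaks in sgNeg and 11 in sgNpm1A, 5 of them intronic in each, but none had a q-value under 1e-05. Coverage by H3K27Ac was 4.66% in sgNeg and 4.74% in sgNpm1A, below the medians of 9.81% and 6.73% for all coding gene regions. The highest peak of the region was the H3K4me3 peak of the neighbour TIGAR, at 5.62-fold in sgNeg. A missing peak says that the signal was under the calling limit, which for H3K4me3 in sgNeg was a summit of 11 fragments.

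**Figure D3:**
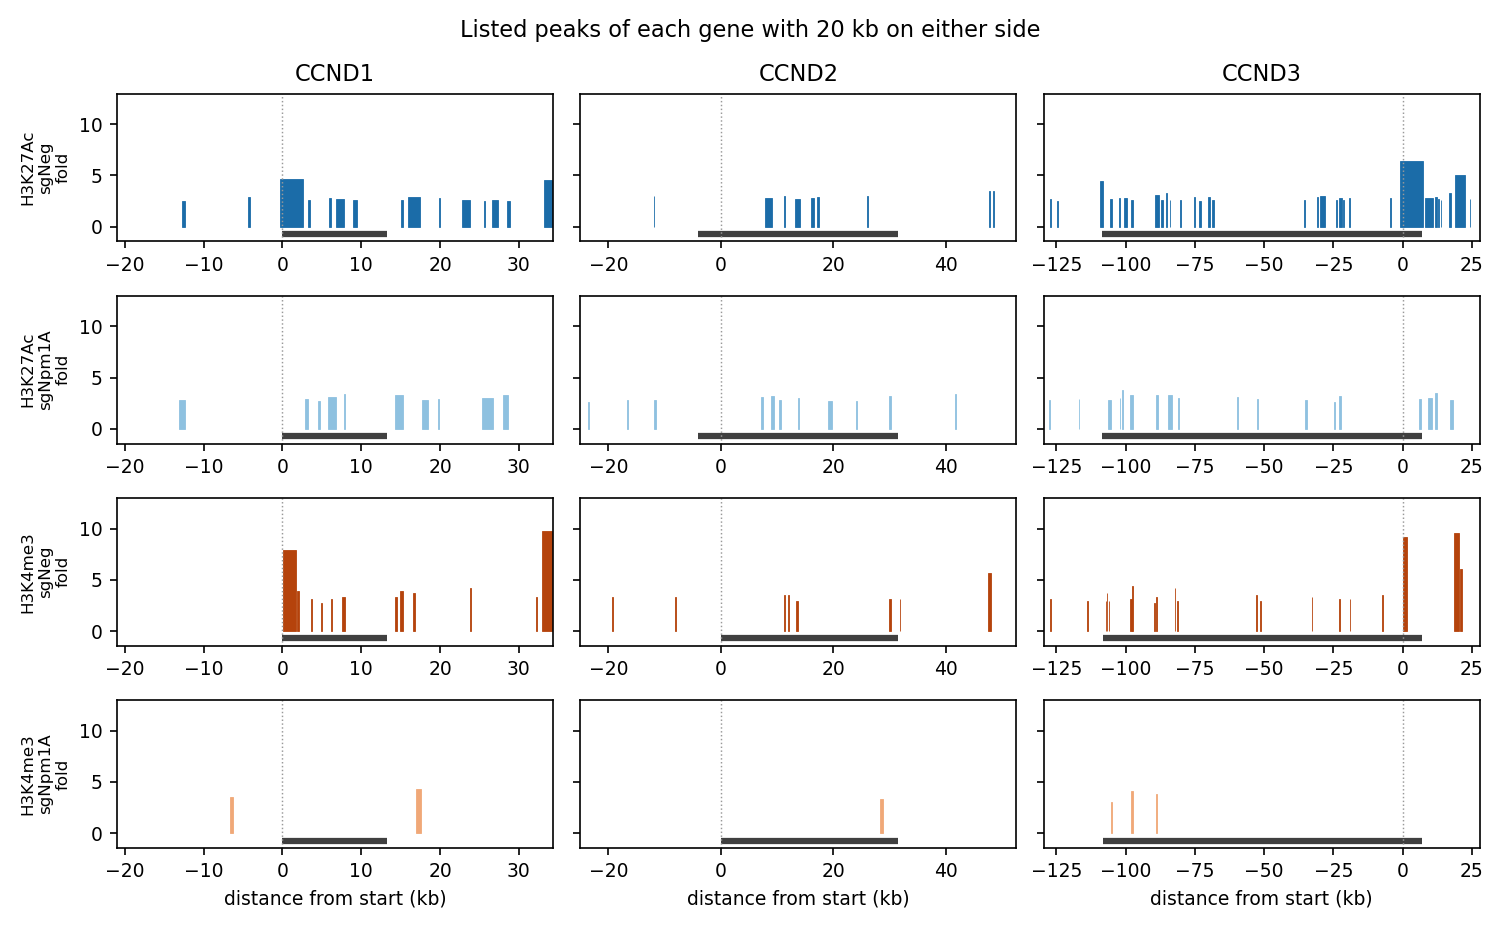
Listed peaks over CCND1, CCND2 and CCND3 with 20 kb on either side, by distance from the reference start (kb); rows are the 4 lists, bar height is fold enrichment, and the dark line is the gene record on the build of that list. CCND1 and CCND3 have tall bars at the start in sgNeg (4.69-fold and 6.43-fold for H3K27Ac), CCND2 has none, and no bar stands over a reference start in sgNpm1A.

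The E-type cyclins, which activate CDK2 at the entry into S phase, both carried H3K27Ac and H3K4me3 in the control lists. CCNE2 had the broader H3K4me3 peak, 2882 bp at 10.8-fold, and 89 of 13441 genes had a wider one. It ran from 375 bp before to 2506 bp after the start of the gene record. Its H3K27Ac peak was 2684 bp wide and 5.53-fold enriched. Starts of NDUFAF6, which is read in the other direction, lie within 1 kb of the same peaks, so the peaks cannot be assigned to CCNE2 alone. The neighbour INTS8 had a H3K27Ac peak of 5.52-fold. Distances at CCNE2 are from the record start, which on GRCh37 (95908906) lies upstream of the MANE start (95907429). CCNE1 had the narrowest H3K4me3 promoter peak of the 6 genes, 875 bp at 8.53-fold (chr19:29812009-29812883, GRCh38), beginning 18 bp after the start. Its H3K27Ac peak reached the other way, over chr19:30300936-30303669 on GRCh37, from 1962 bp before to 771 bp after the start, and was the lowest of the 6 at 3.96-fold. No other coding gene had a promoter peak in the CCNE1 region.

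In sgNpm1A neither E-type cyclin had a promoter peak of either mark. The nearest H3K27Ac peaks lay 1271 bp upstream of CCNE1 (2.92-fold) and 1096 bp upstream of CCNE2 (3.03-fold), just past the 1 kb limit, and the nearest H3K4me3 peaks 19635 bp and 3375 bp upstream. The 3 H3K4me3 peaks of the CCNE2 region in sgNpm1A all overlapped a sgNeg peak and lay upstream of the gene. CCNE2 is on chromosome 8, which had the most peaks per Mb of the 24 chromosomes in every list, with 246 for H3K27Ac in sgNeg against a median chromosome of 93.0, and 362 against 80.6 for H3K4me3. The CCNE2 region was covered by H3K27Ac to 26.6% in sgNeg and 16.5% in sgNpm1A, where the whole chromosome was covered to 16.95% and 18.96%. By joined H3K27Ac regions the one over CCNE2 was 146th in sgNeg and 73rd in sgNpm1A, with a length of 713 kb and 947 kb. The part of chromosome-wide density in these ranks was not tested.

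**Figure D4:**
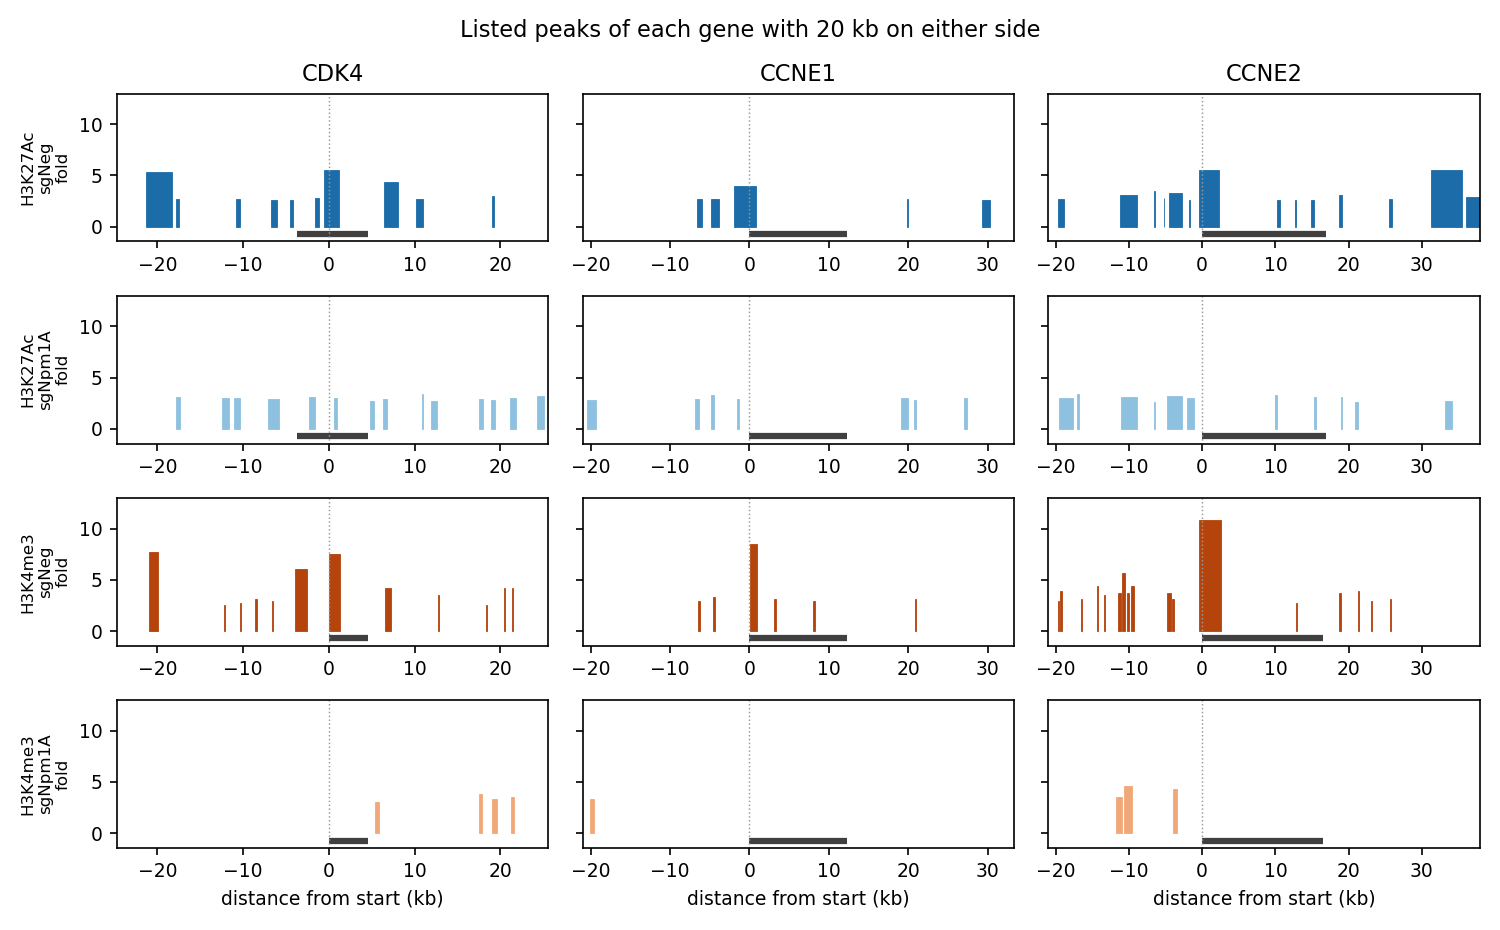
Listed peaks over CDK4, CCNE1 and CCNE2 with 20 kb on either side, drawn as bars of fold enrichment by distance from the start (kb) for the 4 lists; the start of CCNE2 is that of the gene record on each build, and was not matched by sequence. The H3K4me3 bars at the starts in sgNeg reach 7.49-fold (CDK4, beginning 45 bp after the start), 8.53-fold (CCNE1, 18 bp after) and 10.8-fold (CCNE2, over the start), and none stands there in sgNpm1A.

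Across the group, 4 of 7 genes (CDK4, CDK6, CCND1 and CCND3) had a H3K27Ac promoter peak in sgNpm1A (57.0% of all coding genes) and 0 of 7 a H3K4me3 promoter peak (9.49%). None had one of either mark with a q-value under 1e-05, which only 0.903% (H3K27Ac) and 1.62% (H3K4me3) of all coding genes had in that list. The within-list percentile of the highest promoter peak was lower in sgNpm1A for each mark in all 6 genes that had a sgNeg peak, and CCND2 had none in either. Of all coding promoters with a sgNeg peak, 82.9% (H3K27Ac) and 96.2% (H3K4me3) were lower as well, so the count in these genes was near that of all promoters. The median change of percentile over these 6 genes was -54.6 for H3K27Ac and -99.1 for H3K4me3, against -35.4 and -97.2 over the promoters of all coding genes that had one in sgNeg.

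Peaks covered 230.8 kb of the 7 regions for H3K27Ac in sgNeg and 97.5 kb in sgNpm1A, a ratio of 0.422, and CDK6 alone held 67.6% of the sgNeg length. Without CDK6 the ratio was 0.561. Over the regions of all coding genes the ratio of summed lengths was 0.742 and, among the 19083 regions with sgNeg coverage, the median ratio was 0.722 and coverage was less in sgNpm1A at 67.1%. Of the 7 genes, 6 had less, and CCND2 was at a ratio of 1.02 (3.08 with a q-value under 0.01). For H3K4me3 the lengths were 48.2 kb and 16.2 kb, a ratio of 0.337, or 0.269 without CDK6, with less coverage in all 7 genes. The ratio of summed lengths over the 20037 coding gene regions was 0.514. Among the 18566 of them with sgNeg coverage the median of the single ratios was 0.343, and coverage was less in sgNpm1A at 93.9%. The single ratios of CCND3 (0.174), CCNE1 (0.199), CCND2 (0.235) and CCND1 (0.251) were below that median. Those of CCNE2 (0.344), CDK4 (0.375) and CDK6 (0.427) were at or above it. Of the 182 sgNeg H3K27Ac peaks of the regions, 58.2% overlapped a sgNpm1A peak (95% Wilson interval 51.0 to 65.2), as against 50.7% of the whole list. CDK6 gave 63 of the 106 overlapped peaks, and without CDK6 the share was 50.6% (40.2 to 61.0). Of the 145 sgNeg H3K4me3 peaks, 17.2% did (12.0 to 24.2), as against 22.6%. In the other direction 78.3% of the 152 sgNpm1A H3K27Ac peaks (71.1 to 84.1) and 60.6% of the 33 H3K4me3 peaks (43.7 to 75.3) overlapped a sgNeg peak, as against 51.4% and 61.2% of the lists. For H3K27Ac the share was 93.8% at CDK6 (86.4 to 97.3), whose region was the most covered in sgNeg, and 60.6% (48.9 to 71.1) at the other 6 genes. The intervals cover counting error only. They also take each peak as independent, although neighbouring peaks share a region and 97 of the 182 sgNeg H3K27Ac peaks lay in that of CDK6. No difference from the whole lists was tested.

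**Figure D5:**
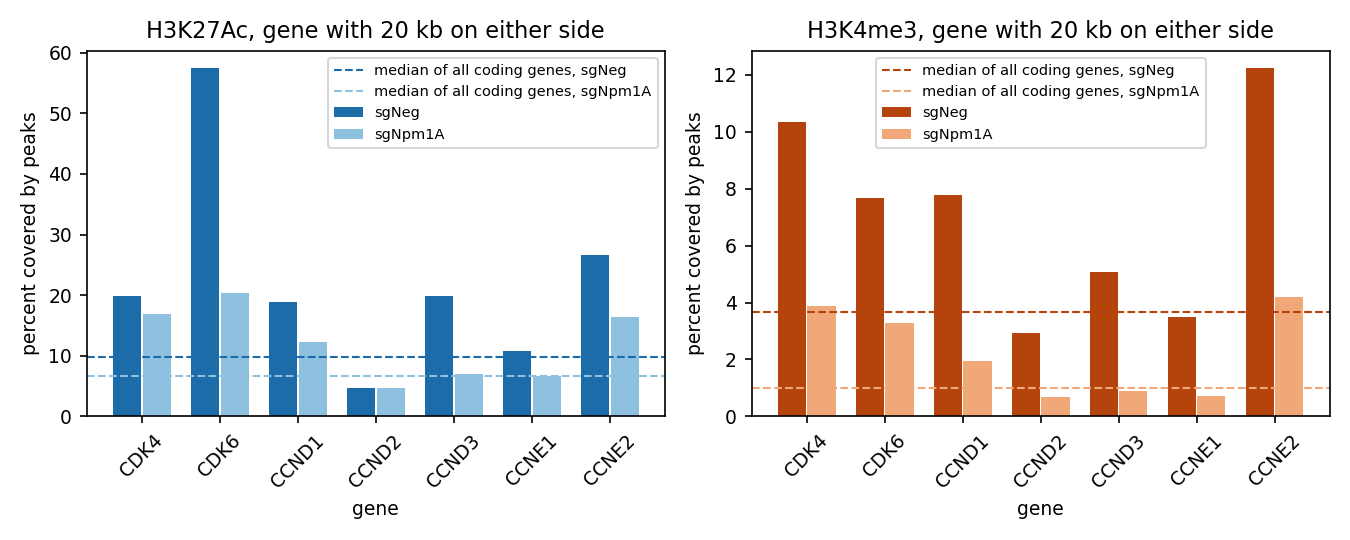
Percent of each gene region (gene with 20 kb on either side) covered by listed peaks in sgNeg (dark bars) and sgNpm1A (light bars), for H3K27Ac (left) and H3K4me3 (right); dashed lines are the medians over all coding gene regions. CDK6 is covered to 57.5% by H3K27Ac in sgNeg and 20.4% in sgNpm1A, and CCND2 lies below the median in both H3K27Ac lists.

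Other genes of the cell cycle were described in the same way. Of 33 genes in 6 lists, 32 had a H3K27Ac and 32 a H3K4me3 promoter peak in sgNeg, beside 79.1% and 68.3% of all coding genes. In sgNpm1A 17 and 2 had one, beside 57.0% and 9.49% of all coding genes. The sgNpm1A counts of each list below stand against these same low shares. All 4 INK4 inhibitors of CDK4 and CDK6 had both marks in sgNeg. CDKN2C was highest for both, at percentiles 99.8 and 99.6, CDKN2B was lowest for H3K27Ac at 88.2 and CDKN2A for H3K4me3 at 85.2. In sgNpm1A 2 of the 4 had a H3K27Ac and none a H3K4me3 promoter peak. Of the 3 CIP/KIP inhibitors, CDKN1B was highest for both marks (99.96 and 99.7) and CDKN1C had no promoter peak of either mark in sgNeg. All 3 had a H3K27Ac promoter peak in sgNpm1A, CDKN1C included at percentile 11.4, and none a H3K4me3 one.

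The pocket proteins, which are the substrates of these kinases, had both marks in 3 of 3 genes in sgNeg and in sgNpm1A H3K27Ac in 1 and H3K4me3 in none. RBL2 was highest for both marks (99.4 and 99.4), RBL1 lowest for H3K27Ac (98.9) and RB1 lowest for H3K4me3 (93.1). All 10 E2F and partner genes had both marks in sgNeg, from E2F2 (73.0) to E2F3 (99.9) for H3K27Ac and from E2F7 (49.6) to E2F4 (99.9) for H3K4me3, and 5 and 1 had one in sgNpm1A. Among the 7 genes of the CDK-activating kinase, the CDC25 phosphatases and their opponent WEE1, all had both marks in sgNeg and 4 and 1 in sgNpm1A. WEE1 was highest for both marks (99.9 and 99.9) and MNAT1, a subunit of the activating kinase, lowest (83.6 and 85.2). Of the 6 cyclins and kinases of S and M phase, all had both marks in sgNeg and 2 and 0 in sgNpm1A. CCNA2 was highest for both (99.8 and 99.2) and CCNA1, a cyclin best known from germ cells and myeloid leukemia, lowest (24.0 and 62.6).

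Genes outside the group with the most similar 4 percentiles were found among 19101 coding genes, taking the largest difference over the 4 lists as the measure. The nearest to CDK6 was ARID1A, with no percentile more than 0.0284 apart. The nearest to CDK4 was GPAT4 (0.233), to CCND1 ZNF696 (0.279), to CCND3 INCENP (0.343), to CCNE1 TASP1 (0.0898) and to CCNE2 BICD2 (0.00488). None of these had a H3K4me3 promoter peak in sgNpm1A, so at least 1 of the 4 values was 0 for each pair. For CCNE1 with TASP1 and CCNE2 with BICD2 the H3K27Ac value of sgNpm1A was 0 as well, which left 2 values to differ.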

How the data were processed

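H3K27Ac and H3K4me3 were measured in 4 of 6 samples by ChIPmentation, and 2 input samples were not analysed here. The submitters' processing notes name bcl2fastq 2.17, Trimmomatic 0.33, Bowtie 1.1.2, MACS2 2.1.0, deepTools and hg38, but the calling limit and the use of inputs are not given in the sources used here. Listed H3K27Ac peaks went up to a q-value of 0.0707 and down to 2.54-fold in sgNeg, but to 0.0437 and 2.66-fold in sgNpm1A. For H3K4me3 these were 0.0308 and 2.50-fold, and 0.0226 and 2.80-fold. The narrowest peaks were 110 bp (sgNeg) and 140 bp (sgNpm1A) for H3K27Ac, and 110 bp and 245 bp for H3K4me3. Comparisons of all listed peaks between guide RNAs are therefore made at unlike limits. The study's text states a longer culture than the labels. The deposited lists hold, per peak, a fold enrichment (a ratio of pileup to background, averaged over broad H3K27Ac peaks and taken at the summit of narrow H3K4me3 peaks), a −log10 p-value and a −log10 q-value made by the authors. The deposited score, which the authors' caller derived from the q-value, and the deposited summit offset were not used. H3K27Ac peaks end at 249218478 on chromosome 1, past its end in GRCh38, and H3K4me3 peaks at 83201880 on chromosome 17, past its end in GRCh37, so the marks are on different builds. No coordinate was converted.

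Python 3.11.15, pandas 2.3.3, numpy 2.4.6, scipy 1.17.1 and matplotlib 3.10.9 were used. Starts came from GENCODE 44 on GRCh37, and on GRCh38 from RefSeq gene records and promoter windows. For H3K4me3 no exons were at hand, so no intron was called. A peak counted with at least 1 bp of overlap. Percentiles are mid-ranks of fold enrichment within a list, with 0 for no peak. Whole fragment counts of H3K4me3 were called within 0.01 fragment, and all peaks of both lists met this. Overlap and coverage steps were tested on simulated intervals. Genes and lists were chosen with earlier results of these data known. All 7 genes were named, with neighbours whose start bears a peak and the highest and lowest gene of each list in sgNeg. Alternatives changed the window, the overlap, the starts, the region and the peak threshold. Promoter sequences for CCND1, CCND2 and CCNE2 were not used here.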

Additional observations from a re-analysis of the deposited data

How the results depend on the processing

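No paired analysis was possible because each group had 1 library. The control promoter counts stayed at 5 or 6 of 7 genes under each of the alternatives, and the counts of genes with a lower percentile in sgNpm1A likewise. For the record start of H3K4me3, an alternative chosen after seeing the data, CCND3 was the gene left out, since its record starts far upstream. The sgNpm1A counts depended on the setting. The 4 genes with a H3K27Ac promoter peak became 0 with the start of the gene record only, 2 with a q-value under 0.01 (CDK6 and CCND1), and 0 with a q-value under 1e-05, a fold enrichment of at least 4 or the 20000 peaks of lowest p-value. With 2 kb on either side they became 6, and H3K4me3 went from 0 to 1 gene (CCND3). The H3K27Ac coverage ratio of 0.422 became 0.262 (q-value under 0.01), 0 (q-value under 1e-05), 0.0115 (fold of at least 4) and 0.0178 (20000 peaks), and the overlap of 58.2% became 30.2%, 0%, 0% and 0% in this order, and 14.8% where 50% of both peaks had to overlap. The H3K4me3 ratio of 0.337 became 0.133 (q-value under 1e-05) and 0.206 (20000 peaks), and the overlap of 17.2% became 7.69% and 6.67%, 10.3% with a fold of at least 4 and 4.14% with 50% of both peaks. Without CDK6, a choice made after seeing the data, the H3K27Ac overlap became 50.6%. With a q-value under 0.01 the H3K4me3 ratio was 0.351 and the overlap 18.0%, since this limit removed sgNeg coverage in 5 of 7 regions and no sgNpm1A coverage. The cause of the other shifts was not tested. Of these settings, only the q-value limit of 1e-05 has a share of all coding promoters beside it (0.903% for H3K27Ac and 1.62% for H3K4me3 in sgNpm1A). The other shifts in counts, coverage and overlap are given without one, and whether they are particular to these genes was not tested. No ratio over the 7 regions together crossed 1, but the H3K27Ac ratios of single genes and their order changed with the limit. Depth limits H3K4me3 to summits of at least 11 (sgNeg) and 10 (sgNpm1A) fragments, and the depth of the H3K27Ac lists is unknown.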
